A study of Mus musculus with 4 samples.

Results

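Collagen chains outside the usual bone and cartilage sets were examined in cultured mouse osteoblasts, the cells that lay down bone matrix. The members were chosen by name alone: every gene on the array whose single annotated symbol had the form of a collagen chain (Col, a number, a, a number) was taken, apart from Col1a1, Col1a2, Col2a1, Col9a1, Col9a2, Col10a1, Col11a1 and Col11a2. This gave 34 chains of 18193 genes with 1 annotated symbol. They comprised 6 fibrillar chains, 6 basement membrane chains of type IV, 7 FACIT chains (fibril-associated collagens with interrupted triple helices) and 15 others.

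The series held 4 Affymetrix arrays with 1 array in each group: control cells labelled 0 h, and cells given 10 nM insulin for 6, 12 or 24 h. All cells were osteoblasts that, by the growth protocol, had no IGF-1 receptor, while the genotype entry reads IGF-1 null, and the labels do not settle which is meant. They had reached confluency and been starved of serum before insulin was added, and the sources used here do not say from how many animals or cultures they came. With 1 array a group there was no replicate, so every difference below is between single arrays and carries no p-value and no error. The small number of arrays limits how firmly any value can be read. Untreated cells at 6, 12 or 24 h were not analysed here, so insulin and time since the 0 h harvest cannot be told apart.

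The 0 h array also stood apart from the insulin arrays in ways that touch every value given against it. Xist, the RNA that coats the inactive X chromosome, had intensities of 109, 1636, 1278 and 1463 at 0, 6, 12 and 24 h, and the Y-linked gene Eif2s3y had 12.2, 295, 305 and 326. The median log2 difference of the insulin arrays from 0 h ranged over 20 chromosomes from -0.15 on chromosome 8 to 0.14 on chromosome 4, while for 24 h minus 6 h it ranged from -0.02 to 0.0042. Of 6 osteoblast markers found, 2 were above the brightness threshold at 0 h and 5 on each insulin array, with summed intensities of 542, 11394, 16162 and 18622 at 0, 6, 12 and 24 h, and Sost was dim. Smooth muscle and pericyte markers (4 of 9 above the threshold at 0 h and 9 of 9 on each insulin array) summed to 11162, 49070, 51948 and 49262. Of the 9, 7 were at least 2-fold higher at each time, Des was 1.21, 1.22 and 1.24-fold lower and Pdgfrb stayed within 1.07-fold of 0 h. Tendon markers (2 of 5, then 5 of 5 on each) summed to 509, 13207, 15913 and 14453. Macrophage markers (4 of 9, then 8 of 9 on each) summed to 1001, 5633, 7073 and 8039. Of these 7 were at least 2-fold higher at each time, while Cd14 was 2.39, 2.42 and 2.28-fold lower. Chondrocyte markers (4 of 7, then 6 of 7 on each) summed to 919, 4350, 6917 and 8047. Of 9 endothelial markers only Kdr and Egfl7 were above the threshold, with Pecam1, Cdh5 and Vwf among the dim ones, and their sum was 446, 557, 563 and 561. The 7 epithelial markers, of which Cdh1, Krt14, Krt18 and Cldn4 were dim, summed to 683, 547, 569.9 and 583. The sums were 10459, 4011, 6371 and 8237 for 5 adipocyte markers (3, then 4 on each insulin array above the threshold). Of these, Lpl was lower by 6.39, 3.98 and 3.14-fold and Pparg by 2.08, 1.21 and 1.14-fold. Adipoq and Fabp4 were higher at each time, and Cidec was dim. For 4 Schwann and neural markers (3, then 4 on each) the sums were 861, 2074, 1936 and 2148. For 6 skeletal muscle markers (2, 1, 1 and 2) they were 324, 1881, 1969 and 1806. Among these 6, Acta1 alone was 2-fold from 0 h, and Myod1, Myog and Ckm were lower at each time. Each sum adds probe sets of unlike response and follows its brightest members, so it does not measure the share of a cell type. Ibsp, for example, had 202, 8849, 11705 and 13147 among the osteoblast markers, and Lyz2 248, 3565, 4354 and 4914 among the macrophage markers. The part of any other cell type or of a different cell source in the collagen differences was not tested.

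Collagens are trimers of chains wound into a triple helix, and cells secrete them into the matrix or, for a few types, keep them in the plasma membrane. Fibrillar chains build the cross-striated fibrils that give bone, skin and tendon their tensile strength, FACIT chains sit on the surface of those fibrils, and type IV chains form the sheet-like network of basement membranes. Bone matrix is mainly type I collagen, and type III and type V chains accompany it in the same fibrils in many tissues.

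Intensities are on the linear scale of the deposited table and are not compared between genes, since each probe set has its own response. A gene is called dim when the mean of its log2 intensities over the 4 arrays was below that of an intensity of 65.3, the average of the array medians. By this measure 25 chains were not dim and 9 were dim: Col4a3, Col4a4, Col4a6, Col6a4, Col6a5, Col17a1, Col19a1, Col24a1 and Col26a1. For comparison, 11704 of all 18193 named genes were not dim. At 0 h 13 chains lay below the threshold intensity, and at 24 h 8 did. These counts for single arrays were not set against all named genes, so they only describe the chains.

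**Figure D1:**
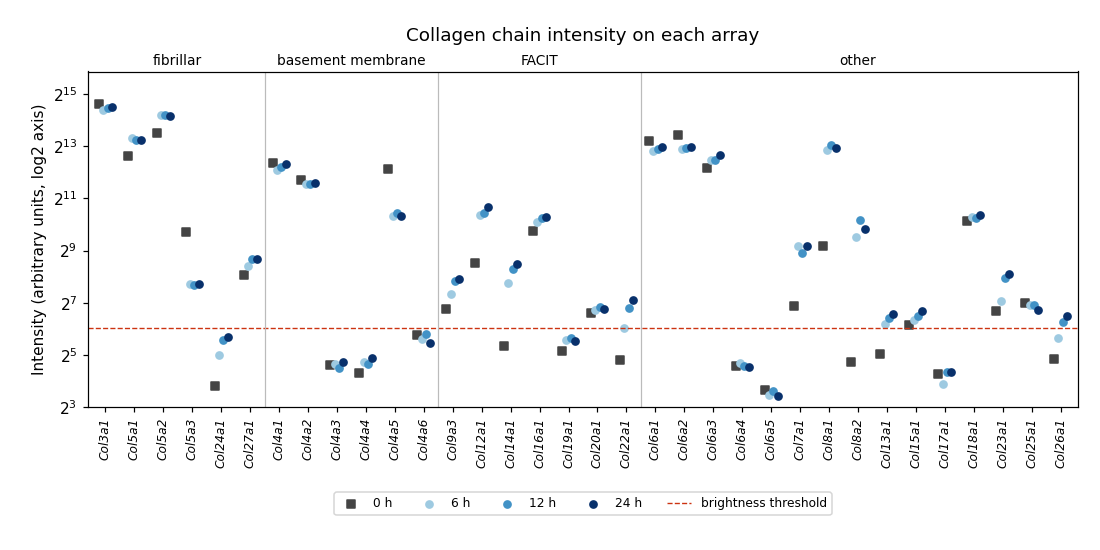
Intensity of each of the 34 collagen chains (log2 axis, arbitrary units) on the 0, 6, 12 and 24 h arrays, 1 point per array, grouped by class, with the brightness threshold of 65.3 as a dashed line. The 3 insulin arrays lie close together for most chains, with the 0 h array far below them for Col8a1 and Col8a2 and far above them for Col4a5 and Col5a3.

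Against 0 h the chains went in both directions, with more of them higher than lower on the insulin arrays. At 6 h 8 of the 34 chains were at least 2-fold higher (23.5%, against 7.27% of all 18193 named genes) and 2 were at least 2-fold lower (5.88%, against 3.48%). At 12 h 11 chains were higher (32.4%, against 8.22%) and 2 lower (5.88%, against 3.94%). At 24 h 11 were higher (against 7.83%) and 2 lower (against 3.62%). The median log2 difference of the chains was 0.31, 0.34 and 0.50 at 6, 12 and 24 h, beside -0.03, -0.03 and -0.05 for all named genes. The 3 comparisons share the 0 h array, so they are not independent.

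The 8 chains at least 2-fold higher at all 3 times were Col7a1, Col8a1, Col8a2, Col12a1, Col13a1, Col14a1, Col22a1 and Col24a1. Col9a3, Col23a1 and Col26a1 passed 2-fold at 12 and 24 h. Col4a5 and Col5a3 were at least 2-fold lower at all 3 times. The other 21 chains were within 2-fold of 0 h throughout by their brightest probe set. The chains 2-fold higher at all 3 times were 23.5% of the 34 (against 6.72% of all named genes), those lower 5.88% (against 2.87%) and those never past 2-fold 61.8% (against 86.6%). Col5a1 is among the 21, and the mean of its 3 probe sets was 2.92, 2.78 and 2.88-fold higher.

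**Figure D2:**
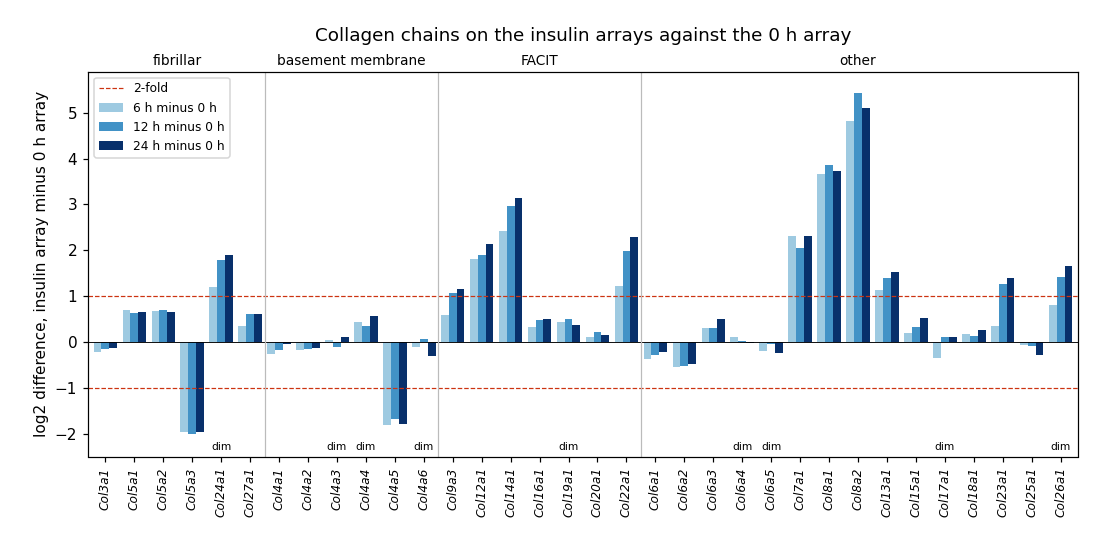
Log2 difference of the 6, 12 and 24 h insulin arrays from the 0 h array for each collagen chain, grouped by class, with bars from 0, dashed lines at 2-fold and dim chains marked. Col8a2 reaches 5.44 at 12 h, Col4a5 and Col5a3 are the chains below the lower line, and both Col4a1 and Col4a2 stay near 0.

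The chains with the largest mean difference in each direction were Col8a1 and Col8a2 upward and Col5a3 and Col4a5 downward, and the bases upstream of their starts are shown for that reason. Each sequence is the 250 bases before a transcript start in RefSeq (mouse build GRCm38.p6), read 5′ to 3′ on the gene's own strand. Capitals mark 2 short motifs found on either strand, the CCAAT box (CCAAT or ATTGG) and the GC box (GGGCGG or CCGCCC). The TATA box core (TATAAA or TTTATA) was searched too and was in none of the 4. The Col8a1 window is at chr16:57754738-57754987 on the minus strand, Col8a2 at chr4:126286544-126286793 on the plus strand, Col5a3 at chr9:20815068-20815317 on the minus strand and Col4a5 at chrX:141475169-141475418 on the plus strand.
Col8a1: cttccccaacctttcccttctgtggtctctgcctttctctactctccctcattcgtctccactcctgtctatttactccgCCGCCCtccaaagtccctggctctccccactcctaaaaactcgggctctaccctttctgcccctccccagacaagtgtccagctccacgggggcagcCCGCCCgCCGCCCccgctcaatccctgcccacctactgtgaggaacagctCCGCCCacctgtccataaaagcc
Col8a2: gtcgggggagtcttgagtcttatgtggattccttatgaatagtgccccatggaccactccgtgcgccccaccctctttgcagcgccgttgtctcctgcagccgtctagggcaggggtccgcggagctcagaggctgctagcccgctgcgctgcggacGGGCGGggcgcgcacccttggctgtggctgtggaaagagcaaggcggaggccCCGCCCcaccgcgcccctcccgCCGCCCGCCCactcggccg
Col5a3: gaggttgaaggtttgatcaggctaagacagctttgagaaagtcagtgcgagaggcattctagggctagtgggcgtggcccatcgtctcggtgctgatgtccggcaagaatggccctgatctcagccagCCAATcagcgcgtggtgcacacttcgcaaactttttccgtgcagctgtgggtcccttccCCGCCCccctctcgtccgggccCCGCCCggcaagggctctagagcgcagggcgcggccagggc
Col4a5: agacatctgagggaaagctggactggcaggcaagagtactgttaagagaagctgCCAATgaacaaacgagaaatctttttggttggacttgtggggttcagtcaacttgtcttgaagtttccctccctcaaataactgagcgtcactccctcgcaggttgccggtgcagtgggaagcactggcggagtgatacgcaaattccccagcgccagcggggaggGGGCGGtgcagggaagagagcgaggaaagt
Both type VIII windows held the GC box 4 times and no CCAAT box, and in Col8a2 the last 2 matches overlap by 2 bases. The Col5a3 window held the CCAAT box once and the GC box 2 times, and the Col4a5 window held each once. GC made up 60.8% of the Col8a1 window, 70.0% of Col8a2, 62.8% of Col5a3 and 54.0% of Col4a5. Of 29 windows found for 27 of the 34 chains, 17 held the GC box (58.6%, against 32.7% of all 32851 windows), 10 the CCAAT box (34.5%, against 33.8%) and 3 the TATA box core (10.3%, against 12.4%). The median GC content was 59.2% for the chains' windows and 52.4% for all. A match describes these letters and is not evidence of a bound factor.

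Type VIII collagen, a short-chain network former known from the membrane beneath the corneal endothelium and from vessel walls, is made of the products of Col8a1 and Col8a2. Col8a1 had intensities of 585, 7431, 8468 and 7749 at 0, 6, 12 and 24 h, which is 12.7, 14.5 and 13.2-fold higher on the insulin arrays. All 3 of its probe sets were higher there, the others by 8.50, 7.97 and 6.11-fold and by 10.5, 11.6 and 11.1-fold. Col8a2 had 26.5, 744, 1150 and 908. Its folds of 28.1, 43.3 and 34.2 rest on a 0 h value below the brightness threshold and on a single probe set. Both partner chains were thus low on the 0 h array and high on each insulin array.

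Type V collagen, which starts and limits the growth of type I fibrils, had chains on both sides. Col5a1 had 6284, 10183, 9677 and 9808 and was 1.62, 1.54 and 1.56-fold higher by its brightest probe set. Its other probe sets were 3.37, 3.29 and 3.33-fold and 4.55, 4.23 and 4.57-fold higher, so the direction was shared and the size was not. Col5a2, the usual partner of Col5a1, had 11795, 18700, 19029 and 18552, or 1.59, 1.61 and 1.57-fold more. Col5a3, the chain that replaces a partner in a rarer form of type V, had 831, 212, 205 and 212, which is 3.91, 4.05 and 3.92-fold lower. The 0 h value of Col5a3 lay above all 3 insulin arrays, while those of Col5a1 and Col5a2 lay below them. A second Col5a3 probe set was dim on all arrays (15.4, 13.1, 14.9 and 14.8).

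The other fibrillar chains differed less from 0 h or were dim. Col3a1, the chain of type III collagen, had 25227, 21801, 22675 and 23082 and was 1.16, 1.11 and 1.09-fold lower, and its second probe set was 1.38, 1.32 and 1.31-fold lower. Intensities this high are near the top of the table's range of 31292. Col27a1, a fibrillar chain of cartilage, had 271, 343, 415 and 413, or 1.26, 1.53 and 1.52-fold more. Col24a1, a fibrillar chain known from developing bone, had 13.8, 31.5, 47.3 and 51.03 by its single probe set, below the brightness threshold on every array, so its folds of 2.28, 3.43 and 3.70 compare dim values. Over the 6 fibrillar chains 1 was at least 2-fold higher and 1 lower at each time, Col24a1 and Col5a3, with medians of 0.50, 0.62 and 0.62 on the log2 scale. Averaging each gene over its probe sets gave 2 higher chains, Col5a1 and Col24a1, and 1 lower at each time. Of all named genes 7.27, 8.22 and 7.83% were higher and 3.48, 3.94 and 3.62% lower at the 3 times.

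Among basement membrane chains only Col4a5 was past 2-fold. Col4a1 and Col4a2, which make up the common form of type IV collagen, were close to their 0 h values on every insulin array. Col4a1 had 5311, 4401, 4679 and 5178, and Col4a2 had 3390, 2984, 3045 and 3078. They were 1.21, 1.14 and 1.03-fold and 1.14, 1.11 and 1.10-fold lower, and the second Col4a1 probe set was 1.31, 1.33 and 1.33-fold lower. Both genes lie on chromosome 8, where the median of all named genes was -0.16, -0.14 and -0.17 log2 at the 3 times, and their own differences were -0.27, -0.18 and -0.04 for Col4a1 and -0.18, -0.15 and -0.14 for Col4a2.

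Col4a5, a chain of the type IV network of the kidney filter that is mutated in X-linked Alport syndrome, had 4502, 1275, 1394 and 1294. It was 3.53, 3.23 and 3.48-fold lower, and its second probe set (1270, 351, 359 and 321) was 3.62, 3.53 and 3.95-fold lower. The 0 h array was the high one for both probe sets, and the 3 insulin arrays lay close together. The median of the genes on chromosome X was -0.04, -0.06 and -0.07 log2, against -1.82, -1.69 and -1.80 for Col4a5. The chains that can join Col4a5 in a trimer, Col4a3, Col4a4 and Col4a6, were dim on all 4 arrays. Their brightest probe sets lay between 19.7 and 56.4, less than 1.5-fold from 0 h. For the class as a whole, Col4a5 was the only 1 of 6 chains past 2-fold. Of all named genes 3.48, 3.94 and 3.62% were at least 2-fold lower and 7.27, 8.22 and 7.83% higher at the 3 times. The medians of the 6 chains were -0.15, -0.13 and -0.09. Subtracting the median of each chromosome turned the 24 h value to 0.0461.

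FACIT chains had the highest median of the 4 classes at each time, 0.59, 1.06 and 1.16 log2, with 3, 4 and 4 of 7 chains at least 2-fold higher and none lower at 6, 12 and 24 h. The 15 other chains had medians of 0.19, 0.31 and 0.50, with 4, 6 and 6 of them higher and none lower. The shares of all named genes were 7.27, 8.22 and 7.83% higher and 3.48, 3.94 and 3.62% lower. Averaged over probe sets, 1, 2 and 4 FACIT chains were 2-fold higher. With that averaging the 6 h median was 0.61 for FACIT and 0.59 for fibrillar chains. With probe sets without a suffix letter these were 0.51 and 0.50, so the FACIT lead at 6 h was small. Col12a1 and Col14a1 encode the FACIT collagens of type I fibrils in tendon, ligament and the coverings of bone. Col12a1 had 373, 1315, 1396 and 1632, or 3.52, 3.74 and 4.37-fold more, and a second bright probe set gave 4.47, 4.18 and 5.09-fold. Col14a1 had 40.3, 215, 313 and 355, with folds of 5.33, 7.76 and 8.80 from a dim 0 h value, and another probe set gave 2.13, 3.04 and 3.23-fold. Both chains were lowest at 0 h and highest at 24 h. The remaining probe sets of both genes were dim and within 1.3-fold of 0 h.

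Col22a1, a FACIT chain known from tissue junctions such as that of muscle and tendon, had 28.01, 65.1, 111 and 136, which is 2.32, 3.98 and 4.87-fold higher. Its other probe sets gave smaller folds, 1.33, 1.65 and 1.86 for the dim one and 1.0045, 1.15 and 1.18 for the other, so passing 2-fold rests on 1 probe set. Col9a3, which encodes a chain of the FACIT collagen of cartilage fibrils, had 108, 163, 225 and 241, or 1.51, 2.08 and 2.23-fold more, and a second bright probe set was 3.43, 7.46 and 6.68-fold higher. Col16a1, a FACIT chain of skin and cartilage matrix, had 874, 1088, 1219 and 1236, at most 1.42-fold above 0 h. Col20a1 had 97.96, 106, 113 and 108, and its probe sets pointed in different directions at sizes below 1.3-fold. Col19a1 was dim, with 35.2, 47.5, 50.1 and 45.8 by its brightest probe set, 1 other probe set 1.36 to 1.47-fold lower and 1 other 3.89, 6.21 and 2.60-fold higher.

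Type VI collagen, which forms beaded filaments around cells, differed less. Col6a1 had 9407, 7262, 7687 and 8106, or 1.30, 1.22 and 1.16-fold less. Col6a2 had 11208, 7714, 7836 and 7978, or 1.45, 1.43 and 1.40-fold less. Col6a3 went the other way with 4601, 5663, 5703 and 6490, or 1.23, 1.24 and 1.41-fold more. Thus Col6a1 and Col6a2 were highest on the 0 h array and Col6a3 was lowest there, all within 1.5-fold. Col6a4 and Col6a5, later additions to the family, were dim on every array, between 10.8 and 25.7.

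Col7a1 encodes the anchoring fibril collagen that ties the epidermal basement membrane to the dermis. It had 116, 573, 477 and 572 by its single probe set, which is 4.94, 4.12 and 4.94-fold higher. Each insulin array lay far above the 0 h array. Among the epithelial markers Epcam had 366, 269, 305 and 314 and Krt8 114, 71.7, 66.4 and 67.99, while the dim Cdh1 had 13.4, 18.8, 26.1 and 29.02 and the dim Krt18 was higher on each insulin array. Their part in the Col7a1 difference was not tested.

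The transmembrane collagens, which stay anchored in the plasma membrane, did not share a direction. Col13a1, found at cell adhesions and neuromuscular junctions, had 32.7, 72.1, 85.9 and 94.02, with folds of 2.21, 2.63 and 2.88 from a dim 0 h value. Col23a1 had 104, 133, 250 and 273, or 1.28, 2.40 and 2.62-fold more. Its second bright probe set was 1.15-fold lower at 6 h and 1.35 and 1.43-fold higher at 12 and 24 h, so its 6 h direction depends on the probe set. Col25a1, known from motor neuron development and amyloid plaques, had 128, 122, 121 and 105, at most 1.22-fold below 0 h, and its dim second probe set was up to 1.80-fold higher. Col17a1, the hemidesmosome collagen of epithelia, was dim, with 19.05, 14.9, 20.4 and 20.6.

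The multiplexins, collagens of basement membrane zones, differed by less than 1.5-fold. Col18a1, whose product releases endostatin, had 1112, 1260, 1208 and 1333, and both of its probe sets were slightly higher on every insulin array. Col15a1 had 71.5, 81.7, 89.5 and 103, or 1.14, 1.25 and 1.44-fold more.

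Col26a1 belongs to none of these groups. It had 28.7, 50.4, 76.3 and 91.02, or 1.76, 2.66 and 3.17-fold more, and its other probe set was dim and 1.09, 1.03 and 1.07-fold lower. Its direction therefore depends on the probe set used.

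Probe sets of the same chain were then compared. The 34 chains had 69 probe sets, and 11 chains had 1. Of 15 chains with several probe sets that were not dim, 13 had all of these on the same side of 0 h at each time, and the exceptions were Col20a1 and Col23a1. With dim probe sets counted too, 11 of 23 chains had all on the same side at each time.

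**Figure D3:**
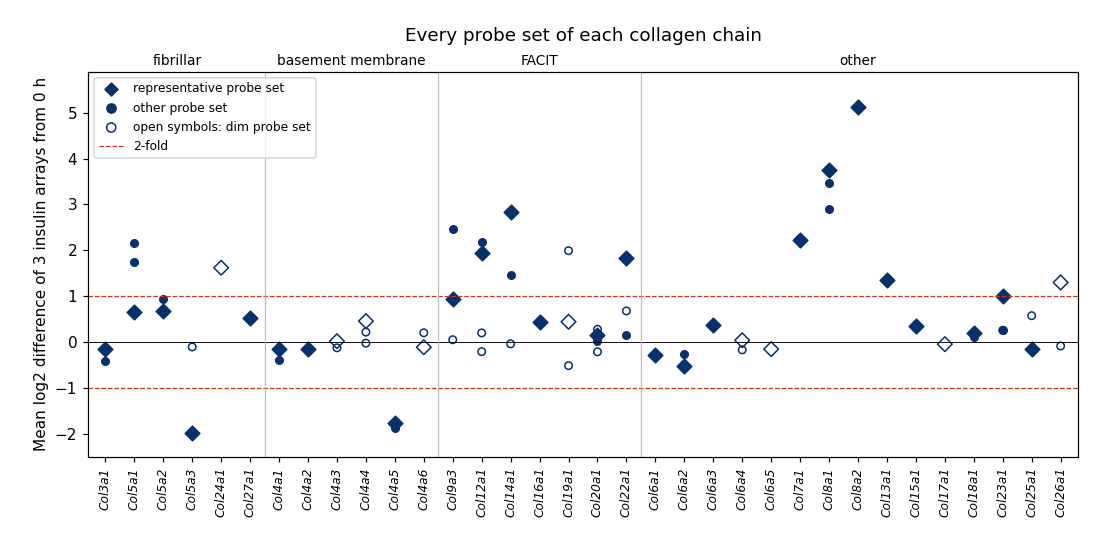
Mean log2 difference of the 3 insulin arrays from 0 h for each of the 69 probe sets of the 34 chains, with diamonds for the probe set that represents the chain, circles for the others and open symbols for dim probe sets. All 3 probe sets of Col8a1 and both of Col4a5 lie beyond the dashed 2-fold lines, while most open symbols lie near 0.

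The insulin arrays were also set against each other, which leaves the 0 h array out. No chain was 2-fold apart between 12 and 6 h (against 0.044% of all named genes) or between 24 and 12 h (against 0.0055%). Col22a1 and Col23a1 were 2-fold higher at 24 h than at 6 h, by 2.09 and 2.05-fold (5.88% of chains, against 0.286% of genes past 2-fold in either direction). With the mean of all probe sets in place of the brightest, neither reached 2-fold. The 6 h value of Col22a1 (65.1) lay just below the brightness threshold. Its other probe set that was not dim had 61.8 at 6 h and 72.9 at 24 h. At 1.5-fold, 5 of 34 chains were higher at 12 h than at 6 h (14.7%, against 0.896%), namely Col8a2, Col22a1, Col23a1, Col24a1 and Col26a1, and none was lower (against 0.308%). Between 24 and 6 h 5 chains were again at least 1.5-fold higher (14.7%, against 1.28%), with Col14a1 in place of Col8a2, and none was lower (against 0.159%). Between 24 and 12 h no chain was 1.5-fold higher (against 0.132%) or lower (against 0.143%).

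The order of the insulin arrays leaned upward among the chains. For 17 of 34 chains (50.0%) the intensity was lowest at 6 h, between at 12 h and highest at 24 h, against 16.0% of all named genes. The opposite order was seen in 2 chains, Col6a4 and Col25a1, and in 18.2% of all named genes. The median of 24 h minus 6 h was 0.11 log2 over the chains and -0.0077 over all genes, and 25 chains (73.5%) were above 0, against 47.5% of all genes. By class this median was 0.04 for fibrillar, 0.07 for basement membrane, 0.31 for FACIT and 0.16 for other chains. Chains of the same cells share the arrays, so these counts describe the 3 arrays and no error can be attached. Marker medians for 24 h minus 6 h were 1.02 log2 for adipocyte (5 of 5 markers higher at 24 h), 0.90 for osteoblast (6 of 6), 0.58 for chondrocyte (7 of 7) and 0.57 for macrophage genes (9 of 9). They were -0.11 for tendon (1 of 5) and 0.03 for smooth muscle and pericyte genes (5 of 9). The bone and cartilage collagens left out by name had a median of 0.71, with 8 of 8 higher at 24 h and 5 of them at least 1.5-fold. The part of these other genes in the collagen order was not tested.

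**Figure D4:**
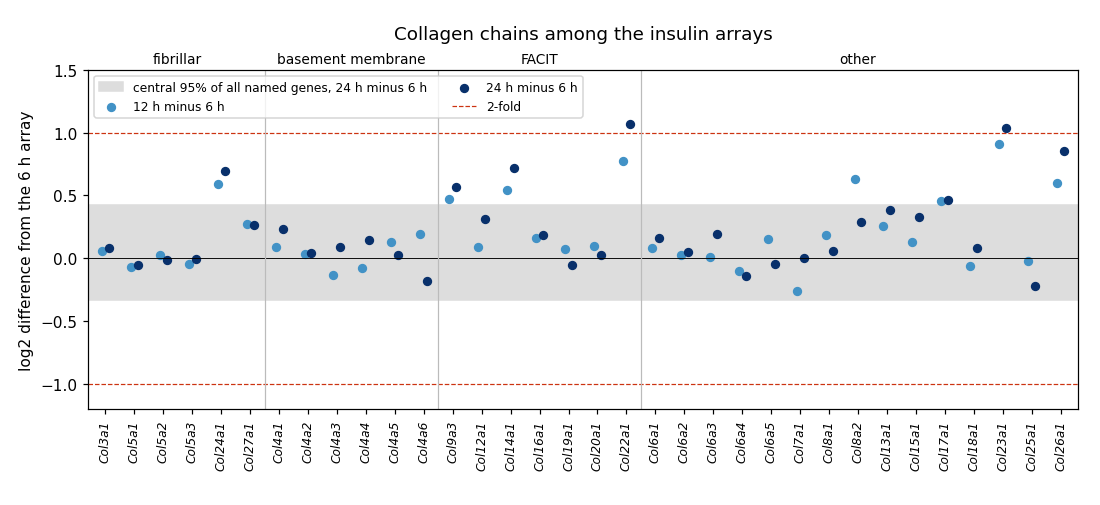
Log2 difference of the 12 h and 24 h arrays from the 6 h array for each collagen chain, grouped by class, with the range that holds the central 95% of all named genes for 24 h minus 6 h (-0.33 to 0.42) in grey and 2-fold as dashed lines. Col22a1 and Col23a1 reach the upper line at 24 h, and Col5a1, Col5a2, Col5a3, Col4a5 and Col7a1 at 24 h lie near 0.

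Several chains are next to each other in the genome by RefSeq order, and neighbours did not always share a direction. Col4a1 and Col4a2 on chromosome 8 point away from each other with annotated starts 21 bases apart, and both were slightly lower than at 0 h as given above. Col4a5 and Col4a6 on chromosome X point away from each other with starts 1343 bases apart, and of these Col4a5 was bright and lower while Col4a6 was dim (53.6, 49.3, 56.4 and 43.5). Col3a1 and Col5a2 are neighbours on chromosome 1, with log2 differences of -0.21, -0.15 and -0.13 for Col3a1 and of 0.66, 0.69 and 0.65 for Col5a2. Col6a1 and Col6a2 on chromosome 10 were both lower, by -0.37, -0.29 and -0.21 and by -0.54, -0.52 and -0.49. Dim pairs were Col4a3 with Col4a4 on chromosome 1 and Col6a4 with Col6a5 on chromosome 9.

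For comparison, the 8 bone and cartilage chains left out by name had medians of 1.85, 2.32 and 2.35 log2. Of these 8, 5 were at least 2-fold higher at every time (against 6.72% of all named genes) and none lower (against 2.87%). Those were Col2a1, Col9a1, Col10a1, Col11a1 and Col11a2. The medians of the 8 chains were above the 0.31, 0.34 and 0.50 of the 34 chains. That difference cannot be tested with 1 array a group. Of the type I chains, Col1a1 was 1.52, 1.73 and 1.72-fold higher than at 0 h by its brightest probe set. Col1a2 was 1.11, 1.15 and 1.20-fold higher by its own. Their intensities reached 23827 for Col1a1 and 24963 for Col1a2, near the top of the table's range of 31292, as for Col3a1.

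Genes that make, process or bind collagen were then read from 4 lists. Of 17 modification and folding genes, 6 were at least 2-fold higher at each time and none lower, with medians of 0.50, 0.62 and 0.82 log2. Plod2, a lysyl hydroxylase that sets the type of cross-link, was 15.2, 14.97 and 17.6-fold higher than at 0 h. P4ha3, a prolyl hydroxylase subunit, had 57.7, 697, 868 and 709. P3h3 was 5.09, 5.66 and 5.34-fold higher and P3h2 3.23, 4.55 and 3.74-fold, both of the prolyl 3-hydroxylase family. Of 12 genes of propeptide cleavage and crosslinking, 4 were 2-fold higher at each time and none lower, with medians of 0.38, 0.48 and 0.39. Tll1, a protease of the procollagen-cleaving family, had 17.7, 655, 680 and 569, and the transglutaminase gene Tgm2 had 65.9, 842, 1087 and 1083. Pcolce2, an enhancer of procollagen cleavage, was 2.89, 2.71 and 3.57-fold higher, and the lysyl oxidase gene Loxl3 2.20, 2.12 and 2.04-fold.

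Of 10 collagen receptor genes 2 were 2-fold higher at each time and none lower, with medians of 0.31, 0.23 and 0.33. Itga1, the integrin subunit that binds type IV and other collagens, had 49.99, 499, 697 and 543, and Cspg4, a proteoglycan that binds type VI collagen, had 36.7, 385, 450 and 504. Of 15 basement membrane partners 5 were 2-fold higher at each time, and 1 was lower at 24 h, the heparan sulfate proteoglycan gene Agrn (1942, 993, 1205 and 917). Their medians were 0.19, 0.22 and 0.21. The laminin chain genes Lama2, Lama1 and Lamb2 were 7.50, 7.996 and 7.38-fold, 3.15, 3.29 and 3.34-fold and 2.13, 2.73 and 2.58-fold higher, and Nid2, which links laminin to type IV collagen, 3.46, 3.52 and 3.21-fold. Each of these counts can be read against the 7.27, 8.22 and 7.83% of all named genes that were 2-fold higher.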

How the data were processed

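The deposited table held 1 intensity for each of 45101 probe sets on 4 arrays (64 of them controls). Per the submitters' processing notes the authors used RMA, which corrects background, normalizes arrays and summarises probes. Neither its software nor a build is named in the labels or files. Intensities ran from 7.34 to 31292, so log2 was taken here. Array medians lay between 65.0 and 65.7.

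A platform annotation, which can be old, gave 34945 probe sets 1 symbol. For each gene the probe set of highest mean log2 intensity was used, with no brightness filter. All chains were named, and of each pathway list up to 4 genes with the largest mean difference of at least 2-fold. Members were taken by the name pattern alone, but that pattern and the lists were set with earlier results of these data known. Among the list entries not reported here, Fkbp10, Adamts2, Adamts14, Loxl2, Itga11, Runx2, Bglap, Bglap2, Spp1 and Plin1 had no probe set matched under 1 symbol. Chromosomes and promoter windows came from RefSeq, GRCm38.p6. The counting code was tested on simulated data with known changes.

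Alternatives were folds of 1.5 and 3, other probe set rules, dim chains left out, median centring, quantile normalization, a lowess curve (span 0.3) removed, and chromosome medians removed. Python 3.11.15, numpy 2.4.6, pandas 2.3.3, statsmodels 0.14.6 and matplotlib 3.10.9 were used.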

Additional observations from a re-analysis of the deposited data

Results flagged for a closer look

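In 4 chains an insulin array was above the 0 h array at 1 time and below it at another, by log2 differences at 6, 12 and 24 h of -0.36, 0.10 and 0.11 for Col17a1, 0.032, -0.10 and 0.12 for Col4a3, -0.12, 0.0733 and -0.30 for Col4a6 and 0.12, 0.0175 and -0.0267 for Col6a4. All 4 chains were dim on every array, each value comes from 1 array, and the difference between times was not tested.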

How the results depend on the processing

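No paired analysis was possible because each group had 1 array. With no replicates, a count was taken as moved when it differed by over 1.5 times and a log2 value when it differed by over 0.58. At 3-fold in place of 2-fold, 5 chains were above 0 h on the 6 h array and 7 on the 12 h array. Between insulin arrays, 5 chains were 1.5-fold apart for 12 and 6 h and 5 for 24 and 6 h. Averaging all probe sets of a gene left 0 chains 2-fold apart for 24 and 6 h. The other 52 recounts against 0 h stayed within those limits under the alternatives run. So did all 21 recomputed medians of the chains and all 84 of the classes. These limits are wide. With all probe sets averaged, 8 chains in place of 11 were higher at 12 h, and at 1.5-fold 12 in place of 8 at 6 h. The FACIT median at 24 h, 1.16, ranged from 0.77 to 1.64 over the settings, all within the limit. The limit of 0.58 cannot show that the chain medians are stable, because at 0.31, 0.34 and 0.50 they were themselves smaller. The same holds for the basement membrane medians of -0.15, -0.13 and -0.09. It also holds for the medians of the other chains, 0.19, 0.31 and 0.50, and for the fibrillar median at 6 h, 0.50. Such a median could fall to 0 and still count as unmoved. With all probe sets averaged, the 6 h chain median fell from 0.31 to 0.17. The basement membrane median at 24 h turned from -0.09 to 0.0461 with chromosome medians removed. Of the 13 chains past 2-fold, Col26a1 turned to -0.0883 log2 with probe sets without a suffix letter, where its dim probe set is the one left, and 7 recomputed means of Col5a3, Col12a1, Col14a1, Col22a1 and Col26a1 moved, each under another probe set rule. No scaling setting moved the median of all named genes by over 0.1 log2. The 9 dim chains lie near background, which limits what their values can show.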
